A study of Mus musculus with 10 samples.

Results

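The expression of 10 genes of the cytotoxic programme of lymphocytes was followed in the spleens of mice with serum-transferred arthritis: the granzymes Gzma, Gzmb, Gzmk and Gzmm, the pore-forming protein gene Prf1, the granule membrane protein gene Nkg7, the effector ligand and cytokine genes Fasl and Ifng, the transcription factor gene Eomes and the receptor gene Ncr1. They were taken by gene symbol, a rule that uses no measured value, and are 10 of the 54532 genes in the table. The list was nevertheless chosen with earlier results of these data known. Each symbol matched a single row.

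Natural killer (NK) cells and cytotoxic CD8 T cells kill other cells by releasing granules in which perforin opens a way into the target and granzymes, which are serine proteases, cleave proteins inside it. The same cells can also kill through the ligand FasL, which triggers the death receptor Fas, and they are a main source of interferon gamma. In the spleen, NK cells carry these transcripts at rest, whereas naive CD8 T cells make most of them after activation.

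The spleens came from 5 DUSP6 KO mice, which carry the Dusp6tm1Jmol allele and lack the phosphatase that turns off ERK, and from 5 wild-type (WT) C57BL/6J mice. The sample labels write the mutant genotype as knockdown, and the study's methods describe a knockout. All mice were 8 to 12 weeks old and had KRN serum-induced arthritis (KSIA): pooled serum of arthritic KRN x NOD offspring was injected intraperitoneally at 100 µL on days 0 and 2, and spleens were taken on day 9. No spleen without serum was analysed here, both lines were purchased, and the sources used here do not state whether the mice were littermates. RNA of each whole spleen gave 1 library, so that fewer cells of a type and less RNA per cell cannot be told apart in any value below. Levels are in FPKM, fragments per kilobase of gene length scaled for sequencing depth, which allows levels of different genes to be compared.

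Reads recovered from the FPKM values came to 14990474 to 19822673 per DUSP6 KO library and 15611652 to 18422147 per WT library. Levels of Dusp6 were 0.308 to 0.624 FPKM in spleens of DUSP6 KO and 16.6 to 24.0 FPKM in those of WT mice (limma, log2 fold change -5.19, adjusted p = 1.3e-07). All 10 libraries had the male pattern of Xist and Ddx3y, and all expressed the spleen genes Tlx1, Nkx2-5 and Nkx2-3. A pair of WT libraries stood apart: the summed FPKM of 5 exocrine pancreas genes was 149 in WT mouse 65 and 12505 in WT mouse 67, against 0.0612 to 0.452 in the other 8 libraries. The fold changes of the 10 genes and of Rab27a, and the relations with NK and CD8 T cell markers, are therefore also given without these libraries. Of the other results below, only a count of pathway genes is. Mice are named by their numbers, and values are listed in the order 26, 21, 73, 01 and 03 for DUSP6 KO and 65, 67, 73, 77 and 83 for WT. The number 73 occurs in both groups and names different mice.

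None of the 10 genes passed the test for a difference between DUSP6 KO and WT spleens. The lowest adjusted p was 0.944, for Gzma (limma on log2(FPKM + 0.1) over 21296 genes, Benjamini-Hochberg adjustment), and no gene of the 10 had an unadjusted p under 0.05 in either direction, with this test or with limma voom on the recovered reads. Among all genes tested, 5.66% had such a p, 2.62% with higher and 3.03% with lower expression in DUSP6 KO, and 0.0704% passed at an adjusted p of 0.05. The values of the groups overlapped for all 10 genes, and over all genes tested they did not overlap for 1.11%. All 10 genes passed the filter of a mean of 0.1 FPKM. Of the 10 log2 fold changes 9 were below 0, with a median of -0.14 (all genes tested, 51.0% below 0, median -0.00464), and the 10 genes are not independent of each other, as the correlations further down show.

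**Figure D1:**
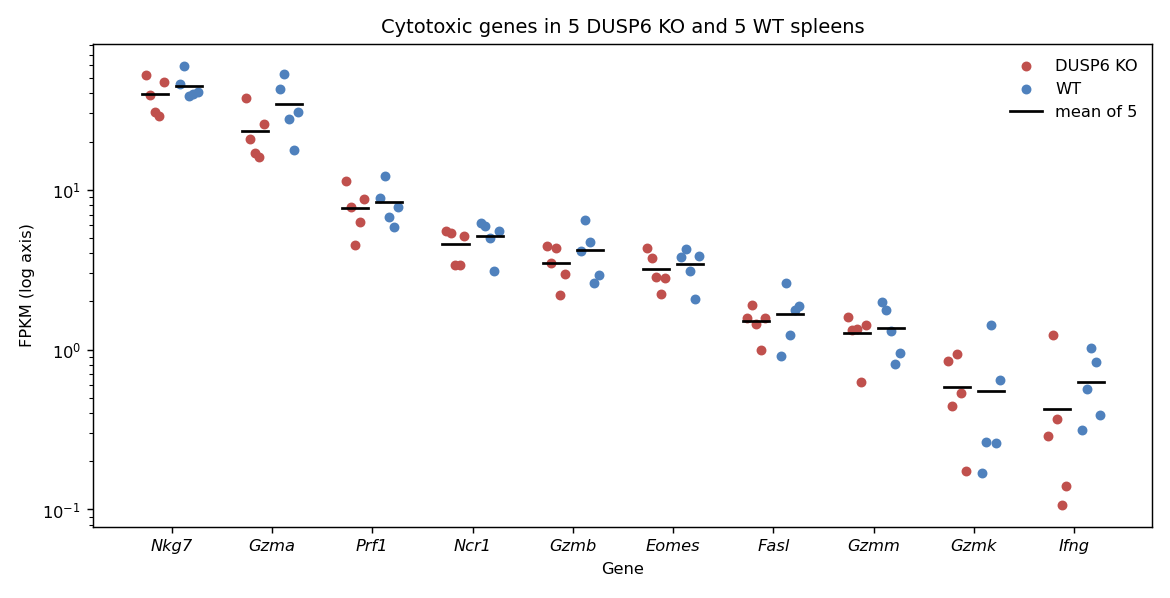
FPKM (log axis) of the 10 cytotoxic genes in each of 5 DUSP6 KO (red) and 5 WT (blue) spleens, with the mean of each group as a bar, ordered by mean level. The groups overlap for every gene, and Gzmk and Ifng spread most widely between mice.

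The levels spanned almost 2 orders of magnitude. Over the 10 spleens the mean level was 42.2 FPKM for Nkg7, 28.9 for Gzma, 8.03 for Prf1, 4.84 for Ncr1, 3.83 for Gzmb, 3.30 for Eomes, 1.59 for Fasl, 1.32 for Gzmm, 0.569 for Gzmk and 0.527 for Ifng. Nkg7 and Gzma together made up 73.5% of the summed FPKM of the 10 genes in DUSP6 KO and 75.8% in WT, from the group means. Neighbours in this order were compared within each library by a two-sided exact sign-flip permutation test, adjusted over the 9 pairs. Gzmb and Eomes (adjusted p = 0.153, in this order in 7 of 10 libraries), Fasl and Gzmm (adjusted p = 0.213, 7 of 10) and Gzmk and Ifng (adjusted p = 0.756, 6 of 10) did not differ beyond their spread. The other 6 neighbouring pairs did, with adjusted p of 0.0410 for Ncr1 over Gzmb (8 of 10 libraries), 0.00703 for Gzmm over Gzmk (9 of 10) and 0.00439 for the rest (10 of 10). The order thus separates Nkg7, Gzma and Prf1 from all that follow, and leaves the lower ranks partly unresolved.

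Granzyme A, a tryptase that is the most abundant granzyme of resting NK cells, had the lowest p of the group. Gzma (GRCm38 chr13:113093825-113100981, minus strand) was at 37.7, 20.7, 16.9, 16.0 and 25.8 FPKM in DUSP6 KO and at 42.8, 53.0, 27.8, 17.7 and 30.6 FPKM in WT. Its mean was 23.4 ± 8.86 FPKM in DUSP6 KO and 34.4 ± 13.7 in WT (SD, n = 5 each). DUSP6 KO mice 73 and 01 lay below the lowest WT mouse, no DUSP6 KO mouse lay above the highest WT mouse, and the highest WT values were those of mice 67 and 65. The log2 fold change was -0.53 (SE 0.31, 95% confidence interval -1.21 to 0.16, limma p = 0.118, adjusted p = 0.944), and the two-sided exact permutation test gave p = 0.175. Without WT mice 65 and 67, whose libraries held the pancreas transcripts, it was -0.15. The unadjusted p fell to 0.0385 without DUSP6 KO mouse 26 and to 0.0252 without WT mouse 77, with adjusted p of 0.810 and 0.782 (limma).

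Granzyme K, a tryptase of memory CD8 T cells, is encoded next to Gzma, 70.6 kb away on the same strand. Gzmk (GRCm38 chr13:113171608-113225908, minus strand) was at 0.849, 0.444, 0.934, 0.532 and 0.174 FPKM in DUSP6 KO and at 0.168, 0.264, 1.42, 0.260 and 0.643 FPKM in WT. The highest and the lowest of the 10 values were both WT, and the 10 values rest on only 4 to 34 reads. For WT mouse 65, 4 reads gave an exact Poisson 95% interval of 0.0459 to 0.431 FPKM, which covers counting error only. Gzmk had a log2 fold change of 0.24 (SE 0.52, 95% interval -0.91 to 1.39, limma adjusted p = 0.993). Gzmk overlaps Esm1 on the other strand, and whether the counting used strand is not stated. Gzma and Gzmk did not move together from mouse to mouse, with r = -0.19 after centring on the genotype mean (n = 10, rho = -0.18, exact permutation p = 0.65 for both, adjusted p over 45 gene pairs 0.836 for r and 0.755 for rho), and r = -0.067 without the 2 mice farthest from the median of Gzmk.

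Granzyme B is the caspase-activating granzyme and is induced strongly on activation. Gzmb (GRCm38 chr14:56258838-56262260, minus strand) was at 4.48, 3.47, 4.32, 2.19 and 2.98 FPKM in DUSP6 KO and at 4.15, 6.49, 4.68, 2.60 and 2.91 FPKM in WT. The WT value of mouse 67 lay above all others, and the rest were interleaved. The log2 fold change was -0.22 (SE 0.27, 95% interval -0.81 to 0.37, limma adjusted p = 0.993).

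Granzyme M, a granzyme found mainly in NK cells, is encoded on chromosome 10, 19.6 Mb from Dusp6. Gzmm (GRCm38 chr10:79689020-79695261, plus strand) was at 1.60, 1.33, 1.34, 0.627 and 1.43 FPKM in DUSP6 KO and at 1.99, 1.78, 1.30, 0.817 and 0.948 FPKM in WT. DUSP6 KO mouse 01 was the lowest of the 10, and the rest of the DUSP6 KO mice lay within the range of the WT mice. Gzmm had a log2 fold change of -0.086 (SE 0.30, 95% interval -0.74 to 0.57, limma adjusted p = 0.995), and without WT mice 65 and 67 it was 0.25.

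Perforin, the pore-forming protein without which granzymes do not enter the target, was the third most abundant transcript. Prf1 (GRCm38 chr10:61297833-61304680, 38.0 Mb from Dusp6, plus strand) was at 11.3, 7.74, 4.54, 6.27 and 8.75 FPKM in DUSP6 KO and at 8.94, 12.3, 6.78, 5.87 and 7.80 FPKM in WT. The means, 7.73 ± 2.56 FPKM in DUSP6 KO and 8.33 ± 2.48 in WT (SD, n = 5 each), differed by less than either SD. The log2 fold change was -0.13 (SE 0.25, 95% interval -0.69 to 0.44, limma adjusted p = 0.993).

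Nkg7, a membrane protein of cytotoxic granules that takes part in their release, was the most abundant of the 10. Nkg7 (GRCm38 chr7:43437073-43438249, plus strand) was at 52.4, 39.3, 30.5, 28.9 and 47.0 FPKM in DUSP6 KO and at 45.9, 59.5, 38.3, 39.5 and 41.1 FPKM in WT. DUSP6 KO mice 73 and 01 lay below every WT mouse, and DUSP6 KO mouse 26 lay above all WT mice but one. Nkg7 had a log2 fold change of -0.20 (SE 0.18, 95% interval -0.60 to 0.21, limma adjusted p = 0.978), the narrowest interval of the 10.

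FasL acts outside the granule pathway, by binding Fas on the target. Fasl (GRCm38 chr1:161780689-161788495, minus strand) was at 1.58, 1.91, 1.44, 1.001 and 1.59 FPKM in DUSP6 KO and at 0.906, 2.62, 1.23, 1.77 and 1.87 FPKM in WT. The WT mice held both the lowest and the highest value, so that the DUSP6 KO range lay inside the WT range. The log2 fold change was -0.094 (SE 0.27, 95% interval -0.69 to 0.50, limma adjusted p = 0.993).

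Interferon gamma is the macrophage-activating cytokine of NK and T cells. Ifng (GRCm38 chr10:118441046-118445892, 19.2 Mb from Dusp6, plus strand) was at 0.290, 1.23, 0.369, 0.107 and 0.140 FPKM in DUSP6 KO and at 0.316, 0.566, 1.03, 0.836 and 0.388 FPKM in WT. Of the 5 DUSP6 KO mice, 3 lay below every WT mouse, and DUSP6 KO mouse 21 lay above every WT mouse. The levels rest on 3 to 31 reads, and in DUSP6 KO mouse 01 the 3 reads gave an exact Poisson 95% interval of 0.0220 to 0.312 FPKM. Ifng had a log2 fold change of -0.71 (SE 0.50, 95% interval -1.83 to 0.40, limma p = 0.186, adjusted p = 0.963, exact permutation p = 0.222), the largest in size and with one of the widest intervals. Without DUSP6 KO mouse 21 it was -1.14, with an unadjusted p of 0.0161 and an adjusted p of 0.587 (limma), and it shrank to -0.46 without DUSP6 KO mouse 01 and to -0.52 without DUSP6 KO mouse 03. Ifng overlaps AC153498.1 on the same strand and Eomes, below, overlaps Gm33460 on the other, so that reads could be split between them. Fold changes on the log2(FPKM + 0.1) scale understate changes at levels as low as those of Ifng and Gzmk.

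Eomesodermin is a T-box transcription factor of NK cells and memory CD8 T cells. Eomes (GRCm38 chr9:118478212-118486132, plus strand) was at 4.31, 3.76, 2.84, 2.23 and 2.81 FPKM in DUSP6 KO and at 3.81, 4.25, 3.10, 2.08 and 3.84 FPKM in WT. The top and the bottom of the 2 groups nearly coincided, at 4.31 and 2.23 FPKM against 4.25 and 2.08 FPKM. The log2 fold change was -0.092 (SE 0.22, 95% interval -0.58 to 0.40, limma adjusted p = 0.993).

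NKp46, encoded by Ncr1, is an activating receptor that marks NK cells. Ncr1 (GRCm38 chr7:4337724-4345164, plus strand) was at 5.53, 5.34, 3.37, 3.39 and 5.13 FPKM in DUSP6 KO and at 6.19, 5.92, 4.97, 3.09 and 5.51 FPKM in WT. In each group the mice split into some near 5 or 6 FPKM and others near 3, and WT mouse 77 was the lowest of the 10. Ncr1 had a log2 fold change of -0.16 (SE 0.22, 95% interval -0.64 to 0.32, limma adjusted p = 0.993).

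For 7 of the 10 genes (Gzmb, Gzmm, Prf1, Nkg7, Fasl, Eomes and Ncr1) the 95% interval lay within a change of 2-fold in either direction. For Gzma, Gzmk and Ifng it did not, so that a 2-fold difference lay within it. Of the 3 genes on chromosome 10, the chromosome of Dusp6, none had an unadjusted p under 0.05, against 6.74% of the 1024 genes tested on that chromosome. Without WT mice 65 and 67, the signs of Gzmb, Gzmk, Gzmm, Prf1, Eomes and Ncr1 turned, at log2 fold changes of 0.038, -0.25, 0.25, 0.12, 0.088 and 0.017, and none of the 10 was called.

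Single mice also moved the fold changes, with no gene called. Gzmk ranged on the log2 scale from 0.0020 without WT mouse 65 to 0.63 without WT mouse 73, and Gzma from -0.74 without WT mouse 77 to -0.35 without WT mouse 67. For Gzmb the log2 fold change ranged from -0.37 without WT mouse 77 to -0.044 without WT mouse 67, for Nkg7 from -0.31 without DUSP6 KO mouse 26 to -0.091 without WT mouse 67, and for Ncr1 from -0.33 without WT mouse 77 to -0.067 without DUSP6 KO mouse 73. The size of these differences thus hung on which mice were included, whereas those of Gzmm, Prf1, Fasl and Eomes changed sign with 1 mouse left out.

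**Figure D2:**
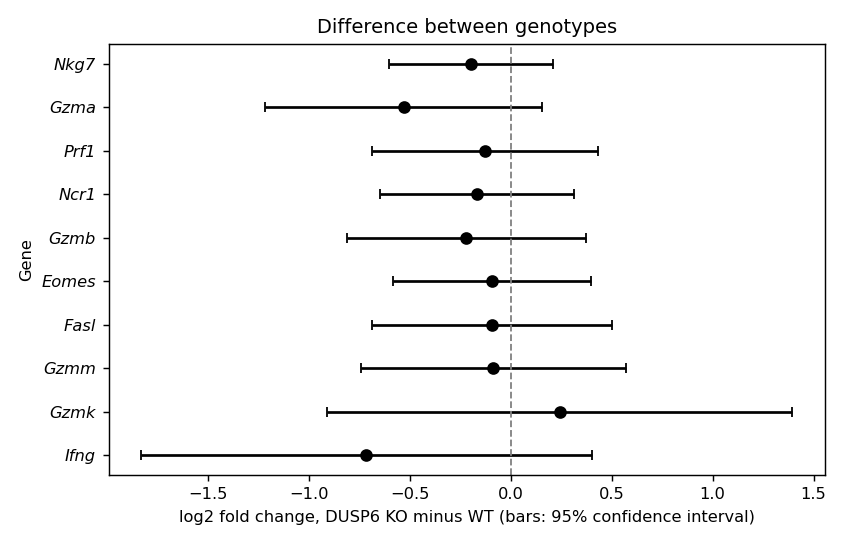
Log2 fold change (DUSP6 KO minus WT, on log2(FPKM + 0.1)) of each of the 10 genes with its 95% confidence interval from limma, 5 spleens per group. Each interval includes 0, and those of Ifng and Gzmk, the genes with the fewest reads, are the widest.

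Over all mice, 8 of the 10 genes varied by 2-fold to little over 3-fold, and Ifng and Gzmk by more. The highest value was 2.01 times the lowest for Ncr1, 2.06 for Nkg7, 2.07 for Eomes, 2.70 for Prf1, 2.90 for Fasl, 2.97 for Gzmb, 3.17 for Gzmm and 3.31 for Gzma over the 10 spleens, against 8.43 for Gzmk and 11.5 for Ifng. The same mice recurred at the ends: WT mouse 67 was the highest of 10 for 5 genes, WT mouse 77 the lowest WT mouse for 6 and DUSP6 KO mouse 01 the lowest DUSP6 KO mouse for 7. This shared variation was examined by correlating log2(FPKM + 0.1), centred on the genotype mean, over the 10 spleens.

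Genes of the NK cell and granule programme varied together, and Gzmb, Fasl, Ifng and Gzmk were in none of the pairs called. Over the 45 pairs of the 10 genes the median r was 0.39, 35 pairs were positive, and 8 were called at an adjusted p of 0.05 (exact permutation within genotype). The highest r was that of Prf1 with Nkg7, 0.92 (rho = 0.92, exact permutation p = 0.000694 and 0.00153, adjusted p = 0.0125 and 0.0229), and it was 0.81 without the 2 mice farthest from the median of Nkg7. Prf1 with Gzma gave r = 0.91 (rho = 0.92, exact permutation p = 0.00104 and 0.00132, adjusted p = 0.0125 and 0.0229), and 0.95 without the 2 farthest mice. Gzma with Nkg7 gave r = 0.87 (exact permutation, adjusted p = 0.0125), so that Prf1, Gzma and Nkg7 varied together from mouse to mouse. This was not particular to granule genes. The receptor gene Ncr1 had r = 0.87 with Gzma and 0.82 with Prf1 (exact permutation, adjusted p = 0.0125 and 0.0424). Eomes with Ncr1 gave r = 0.89 (rho = 0.81, exact permutation p = 0.00188 and 0.0152, adjusted p = 0.0169 and 0.0684), and 0.86 without the 2 farthest mice. Gzma with Eomes (r = 0.85) and Gzmm with Ncr1 (r = 0.73) were likewise called by r but not by rank (exact permutation, adjusted p of rho 0.0677 and 0.0982). Gzmb with Gzmm fell just short, at r = 0.83 (exact permutation, adjusted p = 0.0514), and was at 0.62 without the 2 farthest mice. The median r of a gene with its 9 partners was 0.79 for Gzma, 0.73 for Ncr1, 0.69 for Gzmm and Eomes, 0.68 for Nkg7, 0.57 for Prf1 and 0.51 for Gzmb, but 0.30 for Fasl, 0.11 for Ifng and -0.14 for Gzmk. Counting error is largest for Gzmk and Ifng, at 4 to 34 and 3 to 31 reads, and its part in their low correlations was not tested.

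**Figure D3:**
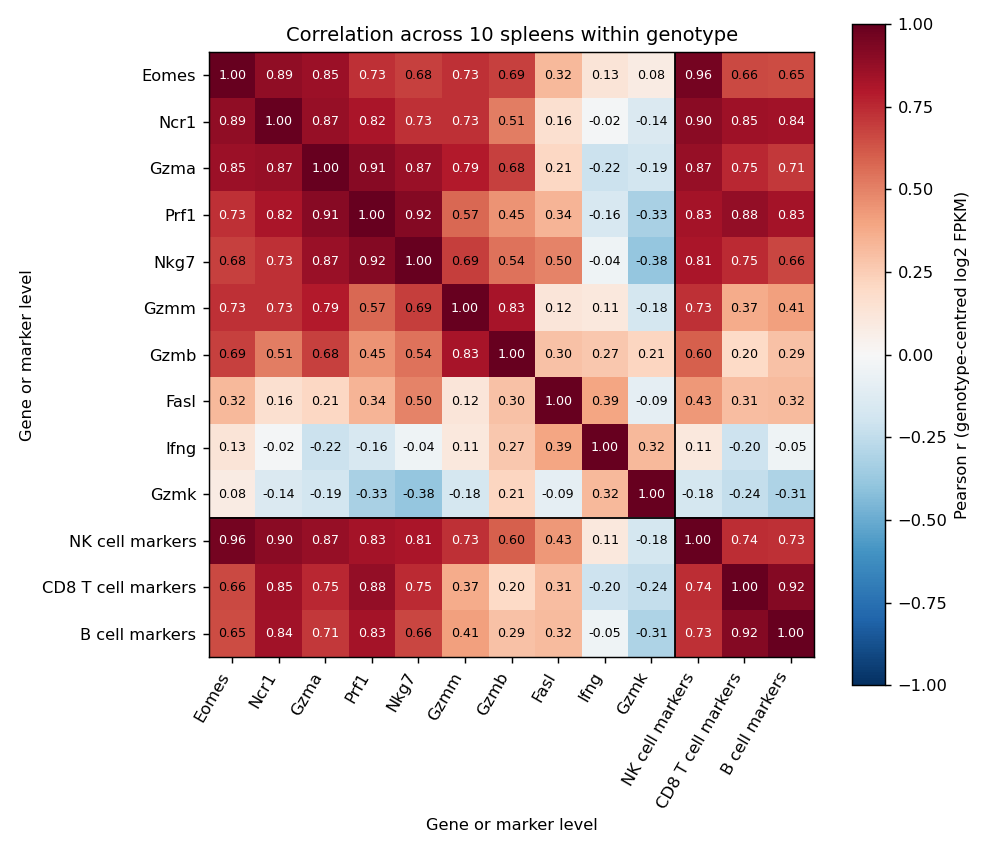
Pearson r of genotype-centred log2(FPKM + 0.1) over 10 spleens between the 10 genes and with the mean log2 level of the NK cell, CD8 T cell and B cell markers, from blue (-1) to red (1). Eomes, Ncr1, Gzma, Prf1 and Nkg7 form a block of high r among themselves and with the markers, from 0.65 upwards, whereas Ifng and Gzmk stay between -0.38 and 0.39 throughout.

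The 10 genes were then set beside markers of the cells that make them. The NK cell markers, none of them among the 10, were the receptor genes Klrb1c, Klrd1, Klre1 and Klri2, the integrin gene Itga2, the egress receptor gene S1pr5 and the chemokine gene Xcl1, and the CD8 T cell markers were Cd8a and Cd8b1. No difference between genotypes was called for either list: no gene of either had an unadjusted p under 0.05. The mean log2 level of the NK cell markers was 1.67 ± 0.26 in DUSP6 KO and 1.83 ± 0.25 in WT (SD, n = 5 each, two-sided exact permutation p = 0.349), with a summed level of 25.2 to 35.9 against 26.5 to 40.2 FPKM. That of the CD8 T cell markers was 4.90 ± 0.37 and 4.79 ± 0.28 (exact permutation p = 0.579), with a summed level of 40.4 to 77.7 against 41.0 to 67.6 FPKM. Among the NK cell markers, the 4 killer lectin-like receptor genes had log2 fold changes of -0.21 for Klrb1c, -0.076 for Klrd1, -0.49 for Klre1 and -0.38 for Klri2 (limma adjusted p from 0.924 to 0.993). Itga2 was at -0.22, Xcl1 at -0.033 and S1pr5 at 0.32, and Cd8a and Cd8b1 were at 0.030 and 0.20.

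Of the 20 relations between a gene and a marker level, 8 were called at an adjusted p of 0.05, 5 with the NK cell and 3 with the CD8 T cell markers (exact permutation within genotype, Benjamini-Hochberg over 20). Eomes, a factor that NK cells need to mature, followed the NK cell markers most closely, with r = 0.96 (rho = 0.94, exact permutation p = 0.000278 and 0.000347, adjusted p = 0.00556 and 0.00694). Ncr1 came next with r = 0.90 (rho = 0.90, exact permutation p = 0.000694 and 0.00208, adjusted p = 0.00694 and 0.0139), then Gzma with r = 0.87 (rho = 0.90, exact permutation p = 0.00278 and 0.00181, adjusted p = 0.0139 for both). Prf1 had r = 0.83 (rho = 0.83, exact permutation p = 0.00674 and 0.00826, adjusted p = 0.0227 and 0.0275) and Nkg7 r = 0.81 (rho = 0.83, exact permutation p = 0.0101 and 0.00826, adjusted p = 0.0288 and 0.0275). Eomes, Ncr1, Gzma, Prf1 and Nkg7 are thus the genes whose level in a spleen went with the level of other NK cell transcripts. Prf1, Ncr1 and Gzma also went with the CD8 T cell markers, given below, so that for them this is not particular to the NK cell markers. Without the 2 mice farthest from the median marker level, DUSP6 KO 01 and WT 77, these r were 0.93 for Eomes, 0.82 for Ncr1, 0.78 for Gzma, 0.85 for Prf1 and 0.78 for Nkg7. Gzmm and Gzmb, at r = 0.73 and 0.60, were not called (exact permutation, adjusted p = 0.0588 and 0.152). Without the same mice their r was 0.36 and 0.16, so that their relation rests on those mice. That of Gzmm was nevertheless called without WT mouse 73 or 83 (exact permutation, adjusted p = 0.0292 and 0.0250). It was also called without centring (r = 0.72, adjusted p = 0.0482, random permutation over all mice). Fasl was at 0.43, Ifng at 0.11 and Gzmk at -0.18 (exact permutation, adjusted p = 0.363, 0.798 and 0.674).

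**Figure D4:**
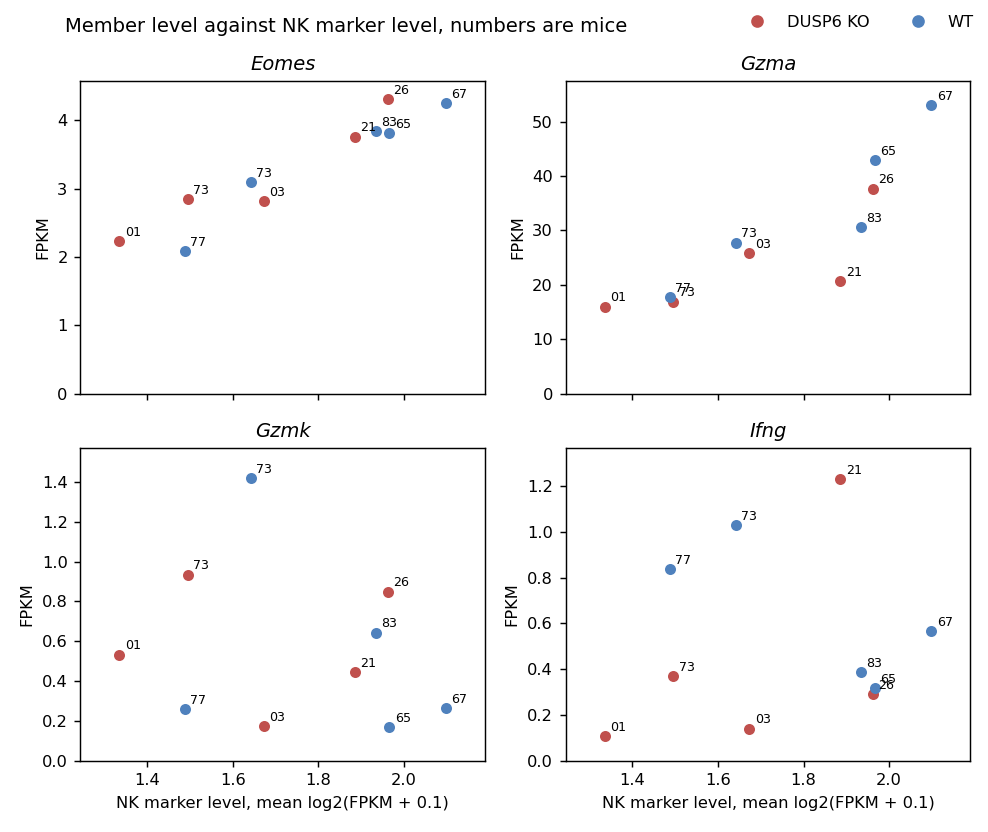
FPKM of Eomes, Gzma, Gzmk and Ifng against the NK cell marker level (mean log2(FPKM + 0.1) of 7 genes) in 5 DUSP6 KO (red) and 5 WT (blue) spleens, each point labelled with the mouse number. Eomes and Gzma rise with the marker level in both genotypes (r = 0.96 and 0.87 within genotype), and Gzmk and Ifng show no such trend (r = -0.18 and 0.11).

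With the CD8 T cell markers, the relations called were those of Prf1 (r = 0.88, exact permutation p = 0.00271, adjusted p = 0.0139), Ncr1 (r = 0.85, p = 0.00681, adjusted p = 0.0227) and Gzma (r = 0.75, p = 0.0161, adjusted p = 0.0403), with rho of 0.89, 0.70 and 0.82 (adjusted p = 0.0146, 0.0933 and 0.0282). Without DUSP6 KO mouse 73 and WT mouse 77, the farthest from the median, r was 0.74, 0.65 and 0.64. Nkg7 was not called by r, at 0.75 (exact permutation, adjusted p = 0.0574). By rank it passed, with rho = 0.84 (exact permutation, adjusted p = 0.0285), and its r was 0.82 without the same mice. Ncr1 is a marker of NK cells and not of CD8 T cells. Of the relations between marker levels, that of CD8 T with B cell markers was called and those of the NK cell markers were not: r was 0.74 between NK and CD8 T cell markers, 0.73 between NK and B cell markers and 0.92 between CD8 T and B cell markers (exact permutation, adjusted p = 0.0654, 0.0654 and 0.0298 over 13 relations chosen after the values were seen), and without the 2 farthest mice it was 0.68, 0.63 and 0.66. With the B cell markers, Prf1 and Ncr1 had r of 0.83 and 0.84 (exact permutation, adjusted p = 0.0349 for both, and 0.0919 for both by rho, so not called by rank). Without the 2 farthest mice these r were 0.61 and 0.55. Gzma, Nkg7 and Eomes had r of 0.71, 0.66 and 0.65 with the B cell markers and were not called (exact permutation, adjusted p = 0.0757, 0.0962 and 0.106). The summed B cell markers ranged from 614 to 1552 FPKM and the summed erythroid markers from 10416 to 52861 FPKM over the 10 spleens, with the lowest B cell and the highest erythroid sum in DUSP6 KO mouse 73, and their part in these relations was not tested.

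Single mice decided some of these calls. The relations of Eomes and Ncr1 with the NK cell markers were called with any 1 mouse left out (r from 0.89 to 0.94 for Ncr1). That of Gzma was lost without WT mouse 77 (adjusted p = 0.0694), that of Prf1 without DUSP6 KO 26 or WT 67, 73 or 77, and that of Nkg7 without DUSP6 KO 26 or 01 or WT 67, 73 or 77, with r of 0.82, 0.79 and 0.75 or more in all cases (exact permutation). With the CD8 T cell markers, the relation of Gzma was lost in 7 of the 10 runs that left out a mouse, that of Ncr1 in 3, and that of Prf1 in 1 (exact permutation). That of Gzma was also lost without centring (r = 0.56, adjusted p = 0.155, random permutation over all mice). Without WT mouse 77 all 3 were lost, at r of 0.65 for Gzma, 0.80 for Ncr1 and 0.86 for Prf1 (exact permutation, adjusted p = 0.164, 0.0929 and 0.0579). Without WT mice 65 and 67 none of the 20 relations was called, at r of 0.95 for Eomes, 0.89 for Ncr1, 0.82 for Gzma, 0.77 for Prf1 and 0.76 for Nkg7 with the NK cell markers (exact permutation, adjusted p from 0.0556 to 0.157, n = 8). Fewer mice allow fewer arrangements and so larger p at a similar r, and a lost call alone does not show a weaker relation.

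The genes whose level across the 10 spleens was most like that of the 8 cytotoxic genes above a mean of 1 FPKM were Gnptg, Ccl5, Prr13, Tep1 and AW112010, among 13414 genes compared. Their r with the mean of the standardised, genotype-centred values of the 8 genes was 0.96 for Gnptg, Ccl5, Prr13 and Tep1 and 0.95 for AW112010. Ccl5, a chemokine stored in the granules of cytotoxic lymphocytes, had a mean of 85.5 FPKM and a log2 fold change of -0.16, and that of the other 4 lay between -0.17 and -0.046 (limma adjusted p from 0.978 to 0.993). With 10 spleens and this many genes, high r also arise between unrelated genes, and these 5 are given as a description.

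The upstream sequences of the 5 genes that varied with the NK cell markers were set beside that of Gzmk, the neighbour of Gzma, which was not called. They are from RefSeq on GRCm38.p6 and hold the 250 bases before the annotated start, read in the direction of transcription, and all 10 genes had an entry. The bases right after that start were found in a GENCODE M21 transcript of the same gene for 5 of the 10 genes. They were not found for Gzmb, Gzmk, Prf1, Eomes and Ncr1, so that the start is less certain for these. For Gzmk, Prf1 and Nkg7 the RefSeq start lies inside the gene as the table bounds it, so that the Gzmk stretch and the end of the Nkg7 stretch, with its T-box match, are not upstream of those bounds. Capitals mark matches, on either strand, to AGGTGT, a site bound by T-box factors such as Eomes, and to TGTGGT, the core bound by RUNX factors. The motifs can share bases where they adjoin, and no match below does.

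Gzma (chr13:113100982-113101231, minus strand): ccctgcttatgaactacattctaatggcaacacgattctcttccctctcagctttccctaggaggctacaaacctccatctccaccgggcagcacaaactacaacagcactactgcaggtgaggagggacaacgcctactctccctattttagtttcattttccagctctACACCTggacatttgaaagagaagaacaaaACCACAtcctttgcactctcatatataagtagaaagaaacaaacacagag
Prf1 (chr10:61297586-61297835, plus strand): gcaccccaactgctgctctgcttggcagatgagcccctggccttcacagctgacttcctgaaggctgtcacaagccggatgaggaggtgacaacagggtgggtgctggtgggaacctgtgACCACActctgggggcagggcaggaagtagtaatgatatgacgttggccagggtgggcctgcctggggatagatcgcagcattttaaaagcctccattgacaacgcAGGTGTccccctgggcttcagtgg
Nkg7 (chr7:43436888-43437137, plus strand): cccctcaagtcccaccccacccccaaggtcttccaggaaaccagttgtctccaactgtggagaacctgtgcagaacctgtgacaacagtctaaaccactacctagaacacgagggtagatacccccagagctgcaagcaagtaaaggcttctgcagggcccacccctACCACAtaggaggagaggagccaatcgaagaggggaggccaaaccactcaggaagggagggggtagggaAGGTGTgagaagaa
Ncr1 (chr7:4337465-4337714, plus strand): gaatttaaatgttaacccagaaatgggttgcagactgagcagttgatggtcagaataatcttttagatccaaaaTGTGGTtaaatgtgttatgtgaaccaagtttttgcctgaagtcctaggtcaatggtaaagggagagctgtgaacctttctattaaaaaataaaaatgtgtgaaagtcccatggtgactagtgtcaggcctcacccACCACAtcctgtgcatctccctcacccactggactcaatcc
Eomes (chr9:118477939-118478188, plus strand): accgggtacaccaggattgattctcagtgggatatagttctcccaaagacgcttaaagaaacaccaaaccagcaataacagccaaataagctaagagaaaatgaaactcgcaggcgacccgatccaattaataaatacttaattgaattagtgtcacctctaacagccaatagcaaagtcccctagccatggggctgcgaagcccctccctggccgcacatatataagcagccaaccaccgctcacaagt
Gzmk (chr13:113180966-113181215, minus strand): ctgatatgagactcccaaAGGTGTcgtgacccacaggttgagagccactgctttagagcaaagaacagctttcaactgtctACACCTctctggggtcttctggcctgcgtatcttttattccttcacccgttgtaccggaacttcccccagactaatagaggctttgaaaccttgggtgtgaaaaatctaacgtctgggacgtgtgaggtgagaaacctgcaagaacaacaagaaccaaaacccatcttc

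AGGTGT or its complement was present in 4 of the 10 upstream sequences (Gzma, Gzmk, Prf1 and Nkg7) and in 11.8% of the 32851 in the table. TGTGGT or its complement was present in 6 (Gzma, Gzmb, Gzmm, Prf1, Nkg7 and Ncr1) and in 14.0% of all. The AP-1 site TGANTCA was present in 1, that of Gzmb, and in 6.75% of all, and none of the motifs was in the 250 bases before Fasl, Ifng or Eomes. In Gzma, Prf1 and Nkg7 both the T-box and the RUNX letters were present, and in Gzmk the T-box letters alone, at 2 places. These are matches of letters, with no measurement of binding in these data.

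The wider pathway was described with 78 genes in 8 lists, of which 72 passed the filter. Of the 72, 6 (8.33%) were lower in the KO spleens at a limma p under 0.05 before adjustment, against 3.03% of all genes tested, none was higher at that p, and none passed after adjustment (limma and limma voom). The median log2 fold change of the 72 was -0.080. The lists were drawn up with earlier results of these data known, and their genes are not independent of each other.

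The gene with the lowest p was Rab27a, a small GTPase that brings granules to the plasma membrane for release. Rab27a was at 8.68, 8.14, 7.53, 5.52 and 8.17 FPKM in DUSP6 KO and at 9.63, 10.3, 11.9, 11.9 and 10.9 FPKM in WT. Every DUSP6 KO value lay below every WT value, as was so for 0.563% of all genes tested. The log2 fold change was -0.53 (SE 0.13, limma p = 0.00157, adjusted p = 0.368), and the two-sided exact permutation test gave p = 0.00794, the smallest that 5 against 5 mice allow. With any 1 mouse left out it lay between -0.58 and -0.42 (limma, adjusted p 0.348 or more), and without WT mice 65 and 67 it was -0.61. Rab27a is used by secretory cells of several lineages, and the summed markers of basophils and mast cells also did not overlap between the groups, at 6.63 to 11.3 FPKM in DUSP6 KO and 17.1 to 43.8 FPKM in WT. Those of neutrophils were at 414 to 1428 and 892 to 3542 FPKM. Of the basophil and mast cell markers taken singly, Prss34, Mcpt8 and Ms4a2 did not overlap between the groups, and Cpa3, Fcer1a and Gata2 overlapped. The part of these cells in the Rab27a difference was not tested. Of the other 7 granule exocytosis genes none had an unadjusted p under 0.05, with Lyst at -0.14, Stxbp2 at -0.048 and Vamp8, the most abundant, at -0.0053 on the log2 fold change scale.

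The other granule proteins included serglycin, the proteoglycan that packs granzymes and perforin. Srgn was at 108, 111, 86.0, 75.8 and 94.95 FPKM in DUSP6 KO and at 109, 131, 119, 101 and 116 FPKM in WT, with the lowest 3 values in DUSP6 KO mice and the rest interleaved (log2 fold change -0.28, SE 0.12, limma p = 0.0345, adjusted p = 0.823, exact permutation p = 0.0476). Gzmc, a granzyme gene near Gzmb, had 0 to 9 reads per library and a log2 fold change of -1.07 (limma p = 0.0252, adjusted p = 0.789, exact permutation p = 0.0556). Serglycin is also made by platelets, neutrophils and basophils. The 4 megakaryocyte and platelet markers all had log2 fold changes below 0, with a summed level of 209 to 297 FPKM in DUSP6 KO and 199 to 468 FPKM in WT, and the part of these cells in the Srgn values was not tested. Ctsc, whose product activates granzymes by removing a dipeptide, was at -0.15, and Lamp1, the most abundant, was at 0.039 (limma adjusted p = 0.953 and 0.993). The related Gzmd, Gzme, Gzmf, Gzmg and Gzmn did not pass the filter, and 4 of them were listed at 0 in every library.

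Among the protease inhibitor genes, Cst7, which encodes cystatin F, was at 13.4, 11.7, 7.54, 6.83 and 14.9 FPKM in DUSP6 KO and at 13.8, 14.1, 14.6, 15.9 and 13.4 FPKM in WT. The WT mice lay close together, and DUSP6 KO mice 73 and 01 lay far below them (log2 fold change -0.46, SE 0.20, limma p = 0.0474, adjusted p = 0.873, exact permutation p = 0.0794). Serpinb9, the inhibitor of granzyme B, was at -0.098 and Serpina3g at -0.24 (limma adjusted p = 0.963 and 0.953).

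Of the 14 genes tested for the interferon gamma receptor and response, Gbp2, an interferon-induced GTPase, was the single one with an unadjusted p under 0.05. Gbp2 was at 17.8, 22.0, 13.2, 9.67 and 14.9 FPKM in DUSP6 KO and at 23.0, 25.5, 23.1, 18.8 and 19.4 FPKM in WT. DUSP6 KO mouse 21 had the highest Gbp2 of its group and lay within the WT range. The groups thus overlapped (log2 fold change -0.54, SE 0.19, limma p = 0.0181, adjusted p = 0.753, exact permutation p = 0.0317). Whether Gbp2 followed Ifng from mouse to mouse was not tested. Iigp1 was at -0.18, Igtp at 0.33 and Ifngr1, the most abundant, at 0.032 (limma adjusted p from 0.967 to 0.993). Of the 11 genes for inducers of interferon gamma and their receptors, none had an unadjusted p under 0.05, with Il12a at -0.46, Il18 at 0.22 and Il18rap at -0.25 (limma adjusted p from 0.944 to 0.962).

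The remaining lists held 1 gene with an unadjusted p under 0.05. That gene was Cd244a, which encodes a receptor of NK cells also called 2B4. It was at 3.63, 5.19, 4.56, 3.55 and 3.80 FPKM in DUSP6 KO and at 5.39, 6.499, 5.70, 5.07 and 4.37 FPKM in WT (log2 fold change -0.38, SE 0.14, limma p = 0.0200, adjusted p = 0.767, exact permutation p = 0.0476). For its list of 8 adaptors and partners the median log2 change was -0.066, with Cd226 at -0.25, Fcgr3 at -0.074 and Tyrobp, the most abundant, at -0.055. The 12 transcription factors of cytotoxic lymphocytes had a median of -0.094, with Bhlhe40 at -0.25, Id2 at -0.22, Nfil3 at -0.26 and Klf2, the most abundant, at -0.22. The 8 genes of the Fas and TRAIL pathway had a median of -0.00468, with Fas, the receptor of FasL, at -0.19, Tnfrsf10b at 0.32 and Bid at -0.073.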

How the data were processed

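RNA of 5 DUSP6 KO and 5 WT spleens at day 9 of KSIA was sequenced from poly-T selected mRNA as paired-end reads, 1 library per mouse. Alignment was done by the authors with Hisat2 and counting with featureCounts (1.5.0-p3 in the submitters' processing notes), and the deposited values are FPKM of 54532 genes, and whether the counting used strand is not given in the sources used here. The submitters' notes name hg38, a human build, but of 54409 genes matched to GENCODE M21 (GRCm38), 53499 (98.3%) had the same coordinates, all 10 cytotoxic genes included. FPKM times gene length was a whole multiple of 1 step per library for 100% of values above 0, which gave reads and depth. The tolerance was 0.001 of a read, and wider in proportion to the count for genes with the most reads. The depth implied by this step was 0.949 to 1.12 times the read total of the table, and how it was set is not stated.

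Groups were compared on log2(FPKM + 0.1) by limma 3.58.1 under R 4.3.3, using a moderated linear model with an intensity trend. The 21296 genes averaging 0.1 FPKM or more were tested, and p-values were adjusted by the Benjamini-Hochberg method (threshold 0.05). The DESeq2 test of the study was not repeated, and limma voom was run on the recovered reads. Single genes were also compared by exact permutation of 5 against 5 mice. Correlations were computed on genotype-centred values with exact permutation within genotype in Python 3.11.15 (numpy 2.4.6, scipy 1.17.1). Without centring, permutations were drawn at random over all mice. Reads give counting intervals (exact Poisson), which cover counting error only. Nothing in the labels states that libraries differ in batch.

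The 10 genes, the gene lists and the markers were chosen with earlier results of these data known. Named were all 10 genes, of each pathway list the 3 genes with the lowest p and the most abundant, every NK and CD8 T cell marker, and the 5 genes most like the mean profile of the 8 cytotoxic genes above 1 FPKM. The values of 1 gene that this rule names are not reported here. As alternatives, limma voom on recovered reads, a robust trend, other pseudocounts (1 and 0.01), no filter and a filter at a mean of 1 FPKM were tried, as were quantile normalization, rescaling that left out haemoglobin, mitochondrial, immunoglobulin and T cell receptor genes, values relative to the NK cell markers, no centring, and leaving out each library, and, chosen after seeing the data, rescaling to read totals and leaving out WT mice 65 and 67. On simulated data the test of 5 against 5 recovered 84 of 100 genes changed 2-fold and 100 of 100 changed 4-fold, with 13 false calls among 21296 genes. The simulated counts had the same fixed dispersion for every gene, and the changed genes all had a mean of 1 FPKM or more. The spread of the 10 cytotoxic genes between mice was not matched, and Gzmk and Ifng lie below 1 FPKM. These shares therefore do not give the power of the test for the 10 genes.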

Additional observations from a re-analysis of the deposited data

Results flagged for a closer look

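In groups of 5 mice, a value stands apart where its gap to the nearest other value exceeds 0.71 of the range of the group (Dixon's 95% value), and 2 of the 26 groups tested held one. Chance flags about 1 in 20 groups. Gzmm in DUSP6 KO mouse 01 was far below the other DUSP6 KO mice, at 0.627 FPKM, with a gap of 0.719 of the range. Ifng in DUSP6 KO mouse 21 was far above the others, at 1.23 FPKM, with a gap of 0.767 of the range.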

How the results depend on the processing

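No paired analysis was possible because the groups share a single replicate number, 73, on different mice. Over 208 fold changes of the 10 genes under the alternatives none was called (lowest adjusted p 0.587, limma), and 18 changed sign. Relative to the NK cell markers the log2 fold change turned to 0.069 for Gzmm, 0.030 for Prf1, 0.061 for Fasl and 0.063 for Eomes. Without WT mice 65 and 67 it turned to 0.038 for Gzmb, -0.25 for Gzmk, 0.25 for Gzmm, 0.12 for Prf1, 0.088 for Eomes and 0.017 for Ncr1. In the same run r turned to -0.0086 for Gzmb with the CD8 T cell and 0.12 for Gzmk with the NK cell markers. In these 8 mice, which allow fewer arrangements, 0 relations with NK cell and 0 with CD8 T cell markers were called, against 5 and 3 with all mice. With FPKM rescaled to read totals 5 CD8 T cell relations were called. With each mouse left out in turn, the log2 fold change ranged from -0.24 to 0.13 for Gzmm, -0.28 to 0.047 for Prf1, -0.28 to 0.080 for Fasl and -0.25 to 0.023 for Eomes, and r from -0.080 to 0.59 for Gzmb with the CD8 T cell markers, -0.36 to 0.020 for Gzmk and -0.25 to 0.26 for Ifng with the NK cell markers. NK cell relations called then ranged from 2 to 6, CD8 T cell relations from 0 to 4, pathway genes at an unadjusted p under 0.05 from 2 to 9 (6 with all mice, 2 without WT 67, 3 without WT 73), and the cytotoxic genes with lower expression at that p from 0 to 1. Over all genes, 8 were called higher and 7 lower. Leaving out each mouse gave 6 to 20 higher and 5 to 12 lower, the most without DUSP6 KO mouse 21, and a minimum mean of 1 FPKM gave 4 lower. The causes were not tested. Depth limits Gzmk and Ifng most, at 4 to 34 and 3 to 31 reads.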
